A study of Mus musculus with 35 samples.

Results

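The comparison described here is that of injured mice treated with plain mesenchymal stromal cells (MSCs) at 3 weeks post injury (wpi) against those at 1 wpi. Its members are the libraries labelled MSCs at these time points, 5 mice at 1 wpi and 5 at 3 wpi, 10 of the 34 libraries in the count table. The mice were C57BL/6NCrl males, 8 to 9 weeks old at the start, that received a closed head injury. On day 5 after the injury, primary MSCs from C57BL/6N mice were injected into the left hippocampus, so that tissue at 1 wpi was collected 2 days and tissue at 3 wpi 16 days after the cells were given. Tissue around the injection site, labelled left cortex, was taken from perfused animals and its RNA sequenced, 1 library per mouse. The 5 Sham mice had the surgery without the impact and no treatment, and were collected in week 1 (2 mice) or week 3 (3 mice). Injured mice injected with PBS, 5 at 1 wpi and 4 at 3 wpi, serve as the reference for the same interval without cells. The MSC groups therefore share the injury and the injection with PBS, and differ from Sham in injury, injection and cells at once. A number in the sample labels is the same for all mice of an MSC group and differs between 1 and 3 wpi, so that anything tied to it cannot be told apart from time. The comparison asks which transcripts fall back, which persist and which appear late once MSCs have been given to the injured brain.

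After a head injury, microglia and infiltrating macrophages clear debris, divide and take on an interferon-responsive, lysosome-rich state, while astrocytes around the lesion enlarge and express intermediate filaments. This innate phase normally wanes over the following weeks. T cells, which recognise peptides on MHC molecules, and antibody-secreting B lineage cells reach injured brain tissue later and in small numbers.

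Libraries of the 10 mice held 30591018 to 36812413 estimated counts, and 3 counts, taken as the lowest level that counts as detected, correspond to 0.0800 to 0.0993 CPM, the counts scaled for library size. This limit and the values near it cover counting error only. The libraries held neuronal and cortical markers, but also those of other regions. Summed thalamic markers were 567 to 1035 CPM at 1 wpi and 605 to 1195 CPM at 3 wpi. Those of choroid plexus were 576 to 1726 and 676 to 1483 CPM, and those of hippocampus 482 to 632 and 516 to 650 CPM. Of the 9 or 13 markers tested each for cortex, striatum, hippocampus, thalamus, choroid plexus and meninges, none was called different between 1 and 3 wpi. Their direction was uneven, with a log2 fold change above 0 in 1 of 13 striatal markers and in all 9 thalamic and all 9 cortical ones. Of 13 mitochondrial transcripts, a sign of RNA quality, 1 was called higher at 3 wpi, and all 13 had a log2 fold change above 0 (median 0.15). Their sum was 48777 to 55383 CPM at 1 wpi and 53185 to 65296 CPM at 3 wpi, against 53178 to 63155 CPM in Sham. Summed striatal markers ranged widely in both groups, from 376 to 1215 CPM at 1 wpi and from 425 to 1001 CPM at 3 wpi. In Sham they were 369 and 378 CPM in the mice of week 1 and 1010 to 1229 CPM in those of week 3. A pair of MSC libraries stood apart from the rest of their groups. Replicate 4 at 3 wpi was the highest of its 5 mice in 150 of the 191 genes that were higher than in Sham at 3 wpi, and had 104 CPM of Lcn2, a secreted acute-phase protein, against 0.265 to 0.974 CPM in the other 4 mice. Replicate 2 at 1 wpi had 13.5 CPM of Il1rn, the interleukin-1 receptor antagonist, against at most 1.21 CPM in its group, and the highest value of its group in 15 of 23 inflammatory cytokine and chemokine genes. Lcn2 and Il1rn were chosen after their values were seen. Where the number of a list's genes called between 1 and 3 wpi, or higher than in Sham at 3 wpi, moved by over 1.5 times without either library, it is given both ways. Sham replicate 4 had 128 CPM of summed monocyte and macrophage genes against 68.9 to 80.8 CPM in the other Sham mice. Its summed complement genes were at 275 against 180 to 194 CPM, and its MHC class II genes at 92.5 against 54.7 to 59.3 CPM. List counts against Sham are not given without this mouse.

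From 1 to 3 wpi after MSCs, many more genes fell than rose. Of 17131 genes tested, 845 were lower at 3 wpi, 4.93% of the genes tested, and 209 were higher, 1.22%, together 1054 genes or 6.15%, at a Benjamini-Hochberg adjusted p under 0.05 by edgeR's quasi-likelihood test. Here, fell and rose are used for genes past this threshold, and fold changes are given as log2 values with their standard error. The edgeR p-values set a difference between groups against the spread between mice, estimated from all 34 libraries of 7 groups. The values of the 5 mice at 3 wpi lay wholly below those at 1 wpi in 650 genes, 3.79%, and wholly above them in 263, 1.54%. The median log2 fold change of all genes was 0.01. Of the 845 genes that fell, 681 were still called without both libraries that stood apart, and of the 209 that rose, 65 were. The calls of genes that rose were less stable when a mouse was left out. Of the 209, 70 were still called without replicate 2 at 1 wpi and 112 without replicate 4 at 3 wpi, against 609 and 795 of the 845 that fell. Their changes were also smaller, with a median log2 fold change of 0.16 against -0.56 for genes that fell. What made these calls less stable was not tested. Over all genes, 1159 were lower and 166 higher at 3 wpi without replicate 4 at 3 wpi. Without replicate 2 at 1 wpi, 615 were lower and 78 higher. List counts without these libraries are to be read beside these totals. Because bulk tissue was measured, fewer cells of a type and less RNA per cell cannot be told apart.

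Against Sham, 1876 genes were higher in MSCs at 1 wpi, 11% of the genes tested, and 1181 were lower, 6.89%. At 3 wpi 191 were higher, 1.11%, and 6 were lower, 0.035%. The comparisons with Sham share libraries with the comparison of 1 and 3 wpi, so the classes that follow describe the same mice and are not independent of each other. Of the 1876 genes higher at 1 wpi, 804 fell by 3 wpi, and 62 of these 804 were still higher than in Sham. Of the 1181 genes lower at 1 wpi, 143 rose. A set of 168 genes was higher than in Sham at both time points, of which 104 were not called between them. Only 23 genes were higher than in Sham at 3 wpi and not called at 1 wpi, and 14 of these also rose from 1 to 3 wpi. Without replicate 4 at 3 wpi, 67 of the 191 genes, 54 of the 168 and 13 of the 23 were still called higher than in Sham at 3 wpi. The number higher than in Sham at 3 wpi was 291 without Sham replicate 4, and 57 against the Sham mice of week 3 alone.

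**Figure D1:**
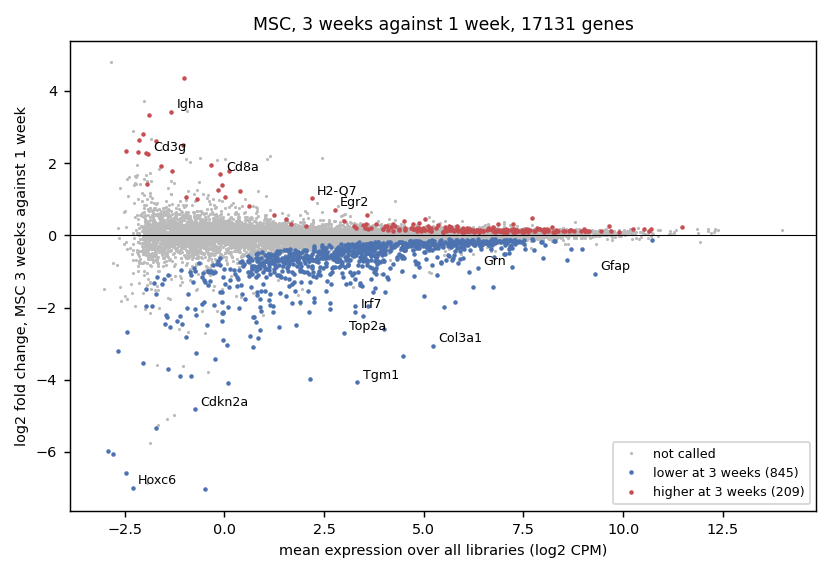
Log2 fold change of each gene tested between 3 and 1 wpi after MSCs (vertical axis) against its mean log2 CPM over all libraries (horizontal axis), with genes at an adjusted p under 0.05 in blue (lower at 3 wpi) or red (higher). The 845 genes that fell outnumber the 209 that rose, and the labelled T cell and immunoglobulin genes that rose lie at low expression.

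Cell cycle genes returned to the Sham level. Of 28 genes tested, 25 fell, 26 had been higher than in Sham at 1 wpi, and none was called against Sham at 3 wpi. Top2a, the topoisomerase that untangles DNA in dividing cells, was at 20.5, 11.2, 16.8, 12.1 and 6.99 CPM in the mice at 1 wpi and at 2.20, 1.89, 1.85, 1.72 and 2.64 CPM at 3 wpi, with 1.73 to 4.32 CPM in Sham. The groups at 1 and 3 wpi did not overlap, and all 5 mice at 3 wpi lay within the range of Sham or just under it. Its log2 fold change was -2.71 ± 0.24 (adjusted p = 1.38e-08, edgeR). Cdk1, the kinase that drives entry into mitosis, fell by 2.84 ± 0.27 on the log2 scale (adjusted p = 3.35e-08), and Mki67, a nuclear protein of cycling cells, fell by 2.24 ± 0.24 (adjusted p = 2.71e-07). The same 25 genes were called without either or both of the libraries that stood apart. In PBS, 25 of the 28 genes fell as well, 24 of them the same.

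The sequences upstream of these genes are shown because the cell cycle list moved together. RefSeq promoters on GRCm38.p6 were matched for 22 of the 28 genes. The letters TTTGAA, known as the cell cycle homology region (CHR), were searched for on both strands of the 250 bases before the gene start. They were present in 7 of the 22 promoters, 31.8%, against 14.2% of the 13279 tested genes with a promoter. They were as frequent in the promoters of lists that have no role in division, 5 of 16 collagen and matrix genes (31.2%) and 5 of 10 interferon-gamma induced GTPases (50%). The letters CCAAT, searched in the same way, were present in 18 of the 22, 81.8%, against 39.6%. The stretches below end before the RefSeq gene start and carry matches to the CHR, or to its reverse complement, in capitals. They lie at chr10:69352913-69352987 (minus strand) for Cdk1, chr11:99024190-99024272 (minus strand) for Top2a and chr7:135716412-135716537 (minus strand) for Mki67.
Cdk1: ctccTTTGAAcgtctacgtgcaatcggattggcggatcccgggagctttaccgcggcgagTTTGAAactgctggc
Top2a: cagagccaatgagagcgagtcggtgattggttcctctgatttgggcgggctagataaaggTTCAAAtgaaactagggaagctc
Mki67: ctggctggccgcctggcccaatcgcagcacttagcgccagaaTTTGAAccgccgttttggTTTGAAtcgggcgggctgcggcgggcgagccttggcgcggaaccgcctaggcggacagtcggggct
A match is a description of the letters and not of a bound site. In GENCODE, Cdk1 starts further upstream, at position 69352938, so that the end of its stretch with the second match lies inside the gene by that annotation.

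Type I interferon-stimulated genes fell almost as a whole. Of 25 tested, 24 fell, 24 had been higher than in Sham at 1 wpi, and none was called against Sham at 3 wpi. Irf7, the transcription factor that amplifies the interferon response, was at 8.43, 9.35, 7.13, 12.1 and 9.11 CPM at 1 wpi and at 2.49, 1.81, 1.51, 2.42 and 2.44 CPM at 3 wpi. All mice at 3 wpi were below all mice at 1 wpi, and 4 of the 5 were above the Sham range of 1.21 to 1.57 CPM. The log2 fold change was -2.11 ± 0.23 (adjusted p = 3.27e-07). Ifi27l2a, a small interferon-induced membrane protein, fell by 2.49 ± 0.32 on the log2 scale, Oas1a, a sensor of double-stranded RNA, by 1.61 ± 0.23, Bst2, which tethers budding virus particles, by 1.36 ± 0.18, and Ifit3, which binds viral RNA, by 1.07 ± 0.21 (adjusted p between 3.54e-06 and 0.000974). Without replicate 4 at 3 wpi or without replicate 2 at 1 wpi the same 24 genes were called, and 21 without both. The list's median log2 difference from Sham was 1.40 at 1 wpi and 0.38 at 3 wpi. In PBS 20 of the 25 fell, each of them also called after MSCs.

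Promoters of 17 of these 25 genes were in the RefSeq table, and 8 of them, 47.1%, held the core of the interferon-stimulated response element (ISRE), a repeat of GAAA with any 2 bases between the copies, on either strand, against 3.28% of the 13279 tested genes with a promoter. Among the interferon-gamma induced GTPases described below, 9 of 10 did, and among MHC class I genes 3 of 17. The stretches shown all end before the RefSeq gene start and carry the matches, or their reverse complement, in capitals. Overlapping matches run together. They lie at chr19:34583347-34583476 (plus strand) for Ifit3, chr8:71537527-71537656 (minus strand) for Bst2, chr5:120907526-120907599 (minus strand) for Oas1a and chr2:122147488-122147617 (plus strand) for B2m.
Ifit3: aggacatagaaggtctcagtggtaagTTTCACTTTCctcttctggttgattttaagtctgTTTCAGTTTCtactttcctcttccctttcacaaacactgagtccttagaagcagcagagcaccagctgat
Bst2: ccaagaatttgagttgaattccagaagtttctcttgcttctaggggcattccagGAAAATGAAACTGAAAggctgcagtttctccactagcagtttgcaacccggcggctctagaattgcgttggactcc
Oas1a: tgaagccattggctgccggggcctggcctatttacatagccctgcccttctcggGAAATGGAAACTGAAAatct
B2m: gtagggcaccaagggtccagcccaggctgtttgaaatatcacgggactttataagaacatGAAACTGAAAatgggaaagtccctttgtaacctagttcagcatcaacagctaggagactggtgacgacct
Ifit3, Bst2 and Oas1a fell after MSCs, whereas B2m, which holds the same letters, did not pass the test (log2 fold change -0.23 ± 0.13, adjusted p = 0.403). B2m was lower at 3 wpi as well once replicate 4 at 3 wpi was left out (adjusted p = 0.00807).

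Genes of microglia, macrophages and their lysosomes fell by smaller amounts. Of 25 monocyte and macrophage genes 9 fell, of 13 homeostatic microglia genes 8, of 20 disease-associated microglia genes 10 and of 20 lysosome genes 16, and none of these rose. Grn, encoding progranulin of the lysosome, was at 92.3, 97.3, 118, 94.8 and 104 CPM at 1 wpi and at 57.1, 50.4, 50.3, 53.7 and 57.9 CPM at 3 wpi. The groups were far apart and each was tight, giving a log2 fold change of -0.91 ± 0.08 (adjusted p = 1.38e-08), and at 3 wpi the mice lay near the Sham range of 43.8 to 57.2 CPM. Ctsd, a lysosomal protease, fell by 0.69 ± 0.11 on the log2 scale, and Csf1r, the receptor for the growth factors that maintain microglia, by 0.51 ± 0.08 (adjusted p = 0.000102 and 7.47e-05). P2ry12, a receptor of resting microglia, was at 34.3 ± 1.68 CPM at 1 wpi and 29.7 ± 5.53 CPM at 3 wpi (mean ± SD, n = 5) and did not pass the test.

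Msr1, a macrophage scavenger receptor, had 3.45, 2.52, 5.95, 3.34 and 2.31 CPM at 1 wpi and 0.356, 0.430, 0.440, 0.265 and 1.32 CPM at 3 wpi, without overlap, and fell by 2.62 ± 0.36 on the log2 scale (adjusted p = 1.04e-05). The highest mouse at 3 wpi was replicate 4. Cd68, a phagocyte lysosomal protein, fell by 1.07 ± 0.17 and stayed higher than in Sham at 3 wpi (log2 difference 0.73 ± 0.18, adjusted p = 0.0305, and 0.114 without replicate 4). Hmox1, which degrades heme, was at 12.7 to 42.3 CPM at 1 wpi and 3.08 to 5.30 CPM at 3 wpi and fell by 2.60 ± 0.34 (adjusted p = 5.4e-06). The light chain of ferritin, Ftl1, fell by 0.62 ± 0.09, and with Slc11a1, an iron transporter of phagosomes, these were the 3 of 11 iron and heme genes that fell. The count was 5 of 11 without replicate 4 at 3 wpi, and 2 without replicate 2 at 1 wpi, the call of Slc11a1 being lost (adjusted p = 0.121). Ccr2, the receptor that monocytes follow into tissue, had 1.72 to 6.83 CPM at 1 wpi and 1.19 to 4.61 CPM at 3 wpi and did not pass the test (adjusted p = 0.307), but was lower at 3 wpi without replicate 4 (adjusted p = 0.0139). Without replicate 4 at 3 wpi, 19 of the 25 monocyte and macrophage genes were lower at 3 wpi instead of 9, and without replicate 2 at 1 wpi 5 were. Over all genes, 1159 and 615 instead of 845 were lower in these settings. Of the monocyte and macrophage list 4 genes were higher than in Sham at 3 wpi, and none of the 4 without replicate 4.

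Reactive astrocyte genes fell but did not all reach the Sham level. Of 22 tested, 15 fell, and 5 were still higher than in Sham at 3 wpi, 2 of them without replicate 4. Gfap, the intermediate filament of astrocytes, was at 845, 876, 1007, 895 and 996 CPM at 1 wpi and at 439.6, 335, 352, 464 and 625 CPM at 3 wpi, with 156 to 216 CPM in Sham. The 3 groups did not overlap, and each mouse at 3 wpi lay between the highest Sham mouse and the lowest mouse at 1 wpi. Gfap fell by 1.06 ± 0.18 on the log2 scale (adjusted p = 0.000172) and was 2.44-fold higher than in Sham at 3 wpi (log2 1.28 ± 0.18, adjusted p = 7.53e-05). Vim, another intermediate filament, fell by 1.42 ± 0.17, and Timp1, an inhibitor of matrix proteases, by 1.88 ± 0.30. Cd44, the hyaluronan receptor, fell by 1.20 ± 0.20. Tgm1, a transglutaminase outside this list, fell by 4.07 ± 0.38 (adjusted p = 1.94e-08), from 14.4, 9.29, 28.5, 13.6 and 7.39 CPM to 0.809, 0.716, 0.723, 0.828 and 1.26 CPM. Every mouse at 3 wpi still lay above the Sham maximum of 0.268 CPM for Tgm1, although the difference from Sham did not pass the test (adjusted p = 0.137).

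Of 23 inflammatory cytokine and chemokine genes, 10 fell and 18 had been higher than in Sham at 1 wpi. Without replicate 2 at 1 wpi 6 fell, and without replicate 4 at 3 wpi 13 did. Ccl2, which attracts monocytes, had 1.51, 1.00, 2.19, 1.72 and 0.624 CPM at 1 wpi and 0.0647, 0.172, 0.0943, 0.199 and 0.458 CPM at 3 wpi. The groups did not overlap, and 1 mouse at 3 wpi was under the detection limit. Ccl2 fell by 2.79 ± 0.51 on the log2 scale (adjusted p = 0.000509). Ccl3, a chemokine of microglia and macrophages, fell by 2.38 ± 0.46 (adjusted p = 0.000835). Il1b, the interleukin-1 beta gene, had 6.97 CPM in replicate 2 at 1 wpi against 0.318 to 0.789 CPM in the other 4 mice, overlapped the values at 3 wpi of 0.0943 to 1.06 CPM, and did not pass the test (adjusted p = 0.114). It did so without replicate 4 at 3 wpi (adjusted p = 0.0441), and without replicate 2 at 1 wpi its adjusted p was 0.94. Neutrophil genes were similarly uneven. None of 9 passed the test, while 5 were lower at 3 wpi without replicate 4, whose S100a8, a granulocyte calcium-binding protein, was at 2.84 CPM against at most 0.0993 CPM in the other mice at 3 wpi.

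Collagen and matrix genes also fell after MSCs, 12 of 24 with none rising. Col3a1, a fibrillar collagen, was at 189, 115, 44.4, 91.4 and 54.7 CPM at 1 wpi and at 12.4, 8.97, 9.68, 9.77 and 18.4 CPM at 3 wpi. All values at 1 wpi exceeded those at 3 wpi, the mice at 1 wpi differed widely among themselves, and the values at 3 wpi lay near the Sham range of 5.88 to 9.60 CPM. The log2 fold change was -3.06 ± 0.32 (adjusted p = 1.24e-07). Col1a1 and Col1a2, the chains of type I collagen, fell by 1.99 ± 0.24 and 1.85 ± 0.21 on the log2 scale, and Bgn, a matrix proteoglycan, by 0.98 ± 0.12. In PBS, Col3a1 was at 12.4 to 38.0 CPM at 1 wpi and 7.79 to 12.6 CPM at 3 wpi, and 3 of the 24 genes fell.

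Posterior Hox genes pattern the trunk and limbs and are expressed by stromal cells of those regions. Transcripts of Hoxc10, Hoxc6, Hoxa9 and Hoxa10 among them were read at 1 wpi and not at 3 wpi. Hoxc10 had 27, 14, 1, 11 and 6 counts in the mice at 1 wpi and 0 in all 5 at 3 wpi, at least 18.8-fold lower against a floor of 3 counts over the group. Hoxc6 had 23, 17, 3, 29 and 6 counts at 1 wpi and 0 at 3 wpi, at least 25.4-fold lower. Hoxa9 and Hoxa10 totalled 38 and 41 counts at 1 wpi and 0 at 3 wpi, at least 12.4-fold and 13.1-fold lower. In PBS at 1 wpi all 4 genes had 0 counts, and in Sham 0 except for 3 counts of Hoxc6. Of the 10 genes of this list that were tested, 6 fell. These include Prrx1, which is not a Hox gene and was at a mean of 5.82 TPM at 1 wpi, 4.68 TPM at 3 wpi and 4.51 TPM in Sham. Other Hox genes were read at both times and in Sham, such as Hoxc9 at a mean of 1.11 TPM at 1 wpi, 0.615 TPM at 3 wpi and 0.711 TPM in Sham, and Hoxd9 at 0.266, 0.225 and 0.244 TPM. Cdkn2a, an inhibitor of the cell cycle, followed the same order of mice as Hoxc10, with 2.49, 1.88, 0.214, 1.21 and 0.780 CPM at 1 wpi and at most 0.0970 CPM at 3 wpi (log2 fold change -4.82 ± 0.61, adjusted p = 3.29e-06). Replicate 2 at 1 wpi was the lowest mouse for Hoxc10, Hoxc6 and Cdkn2a and the lowest of its group in 11 of the 24 collagen and matrix genes. Whether these transcripts came from the injected cells was not tested.

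**Figure D2:**
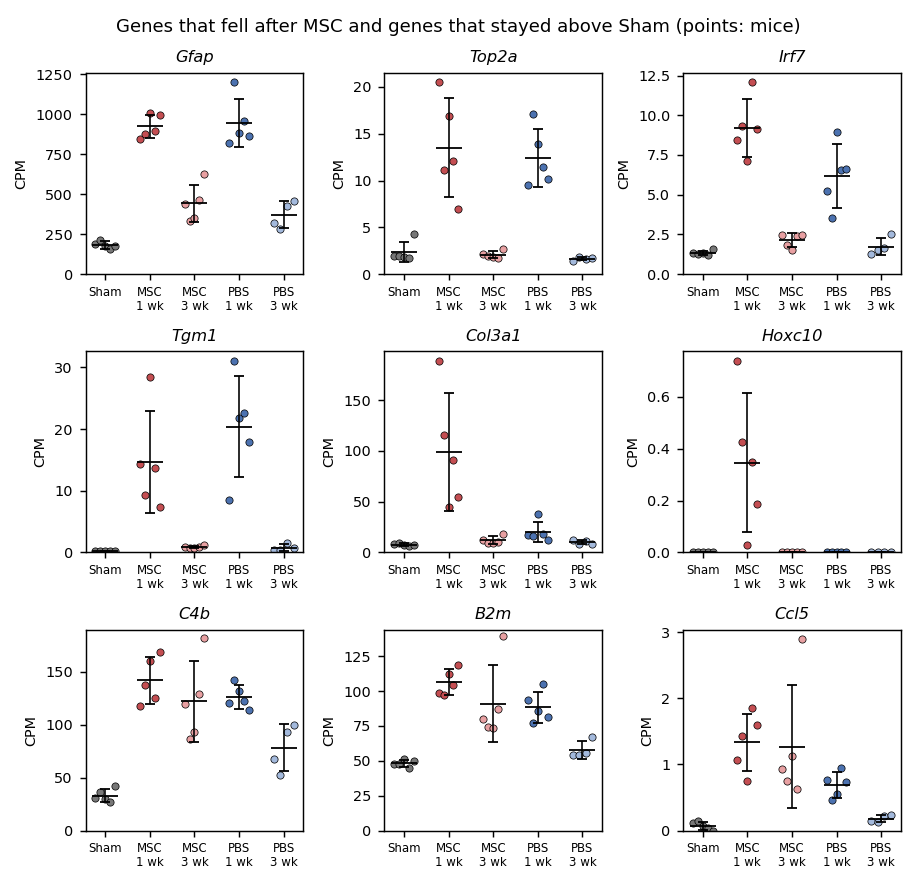
CPM of 9 genes (vertical axes, each with its own scale from 0) in each mouse of Sham, MSCs at 1 and 3 wpi and PBS at 1 and 3 wpi, with points for mice and bars for the mean and SD, the lower arm ending at 0. Gfap, Top2a, Irf7, Tgm1, Col3a1 and Hoxc10 are lower in all mice at 3 wpi than in all mice at 1 wpi after MSCs, while C4b, B2m and Ccl5 overlap between these times and stay above Sham.

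A smaller group of genes stayed above Sham, complement and antigen presentation genes among them. Of 17 complement genes 4 fell and 7 were higher than in Sham at 3 wpi. Leaving out replicate 4 at 3 wpi, 11 fell and 3 of the 7 were higher than in Sham. C4b, a complement component whose cleavage products mark targets, was at 117, 138, 160.0, 125 and 169 CPM at 1 wpi and at 119, 86.3, 93.0, 129 and 182 CPM at 3 wpi, against 26.8 to 41.6 CPM in Sham. Both MSC groups overlapped broadly (log2 fold change -0.22 ± 0.17, adjusted p = 0.567), and every mouse of both exceeded every Sham mouse. C4b was 3.68-fold higher than in Sham at 3 wpi (log2 1.88 ± 0.18, adjusted p = 2.41e-07). In PBS it fell by 0.69 on the log2 scale (adjusted p = 0.0206). C3ar1, a receptor for a complement fragment, fell by 1.38 ± 0.21 after MSCs.

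Of 19 MHC class I presentation genes, 12 were higher than in Sham at 3 wpi, 7 of them without replicate 4, while 3 fell and 1 rose from 1 wpi. The number that fell was 7 without replicate 4 at 3 wpi and 1 without replicate 2 at 1 wpi. B2m, the invariant chain of class I molecules, was at 98.4, 97.6, 112, 105 and 119 CPM at 1 wpi and at 80.2, 74.2, 73.6, 87.4 and 139 CPM at 3 wpi, against 44.7 to 51.0 CPM in Sham. Replicate 4 was the only mouse at 3 wpi above the mice at 1 wpi, and the other 4 lay between these and Sham. B2m was 1.88-fold higher than in Sham at 3 wpi (adjusted p = 0.000168). H2-K1, a class I heavy chain, was 2.36-fold higher than in Sham at 3 wpi (adjusted p = 0.000232), with 82.5 CPM in replicate 4 and 32.2 to 40.9 CPM in the others. Psmb8, a subunit of the immunoproteasome that cuts peptides for class I, fell by 0.62 ± 0.19 on the log2 scale (adjusted p = 0.0449) and was 2.01-fold above Sham at 3 wpi. Without replicate 2 at 1 wpi the call between the times was lost (adjusted p = 0.111), as was that against Sham without replicate 4 at 3 wpi (adjusted p = 0.0702).

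H2-Q7, a nonclassical class I gene, was the member that rose, from 2.13, 2.31, 1.68, 2.01 and 2.18 CPM to 3.17, 2.87, 2.55, 3.21 and 9.11 CPM (log2 fold change 1.03 ± 0.30, adjusted p = 0.0372). The groups did not overlap, but the call was lost without replicate 4 (adjusted p = 0.281), and near-identical neighbours of H2-Q7 make its counts uncertain. In PBS its log2 fold change was -1.14 and did not pass the test (adjusted p = 0.0809).

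None of 12 MHC class II genes was called between 1 and 3 wpi, and 7 were higher than in Sham at 3 wpi, 5 of them without replicate 4. Without replicate 4 at 3 wpi 2 fell, and without replicate 2 at 1 wpi 1 rose, namely Cd74 (adjusted p = 0.0338). Cd74, the invariant chain of class II, was at 8.90, 10.7, 26.1, 9.43 and 10.3 CPM at 1 wpi and at 13.9, 19.2, 10.7, 14.6 and 69.2 CPM at 3 wpi, against 2.54 to 3.96 CPM in Sham. H2-Aa, a class II alpha chain, was 7.03-fold higher than in Sham at 3 wpi (log2 2.81 ± 0.43, adjusted p = 0.000232). In each of these genes the 1 mouse that stood apart in its group was the highest. Of the 9 class II genes with a promoter in the table, 8 held CCAAT, 88.9% against 39.6% of all, and the stretch before the start of H2-Aa at chr17:34287824-34287931 (minus strand) carries it on the other strand, in capitals, the inverted form known as the Y box in class II promoters.
H2-Aa: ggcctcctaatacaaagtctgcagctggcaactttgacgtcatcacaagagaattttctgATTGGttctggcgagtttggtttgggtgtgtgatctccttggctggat

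Among disease-associated microglia genes, 8 of 20 were higher than in Sham at 3 wpi, and 6 without replicate 4, of which 5 were the same. Itgax, the integrin CD11c, was at 2.44, 3.25, 4.78, 2.1 and 3.03 CPM at 1 wpi and at 3.27, 2.38, 2.42, 2.62 and 1.58 CPM at 3 wpi, with at most 0.525 CPM in Sham. Here replicate 4 was the lowest mouse at 3 wpi. Itgax was 7.65-fold higher than in Sham at 3 wpi (log2 2.94 ± 0.43, adjusted p = 0.000128). Cst7, an inhibitor of cathepsins, and Clec7a, a receptor for glucans, were 9.13-fold and 5.32-fold higher than in Sham at 3 wpi (adjusted p = 0.000232 and 0.00181), and neither passed the test between 1 and 3 wpi. The list thus held both genes that fell, such as Ctsd, and genes that were not called between the times.

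Ccl5, a chemokine that T cells both make and follow, had the largest difference from Sham at 3 wpi among the genes higher at both times. It had 1.07, 1.43, 0.747, 1.85 and 1.59 CPM at 1 wpi and 0.938, 0.745, 1.13, 0.629 and 2.89 CPM at 3 wpi, and at most 0.148 CPM in Sham. The MSC groups overlapped (log2 fold change -0.06 ± 0.35), and the difference from Sham at 3 wpi was 4.01 ± 0.53 on the log2 scale (adjusted p = 3.63e-05). In PBS it fell by 1.90 (adjusted p = 0.0229) to 0.131 to 0.231 CPM at 3 wpi. Of 11 T cell attractants, Cxcl10 and Cxcl16 fell, by 1.77 ± 0.38 and 0.61 ± 0.18 on the log2 scale, and 4 were still higher than in Sham at 3 wpi, 2 of them without replicate 4. Of the 11, 4 fell without replicate 4 at 3 wpi and 1 without replicate 2 at 1 wpi, the call of Cxcl16 being lost (adjusted p = 0.141). Cxcl10, a ligand of CXCR3, was 6.23-fold above Sham at 3 wpi (adjusted p = 0.0103, and 0.0508 without replicate 4). Cxcl16, the ligand of CXCR6, was at 2.20 to 4.21 CPM at 3 wpi against 1.30 to 1.67 CPM in Sham (adjusted p = 0.00439). Of 16 interferon-gamma induced GTPases, which act against intracellular microbes, 3 fell and 4 were higher than in Sham at 3 wpi, 2 of them without replicate 4. Iigp1 had 2.64 to 6.27 CPM at 1 wpi and 2.52 to 5.43 CPM at 3 wpi, against 1.24 to 1.48 CPM in Sham. The transcript of interferon-gamma itself, Ifng, was below 3 counts in every MSC mouse and was not tested.

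**Figure D3:**
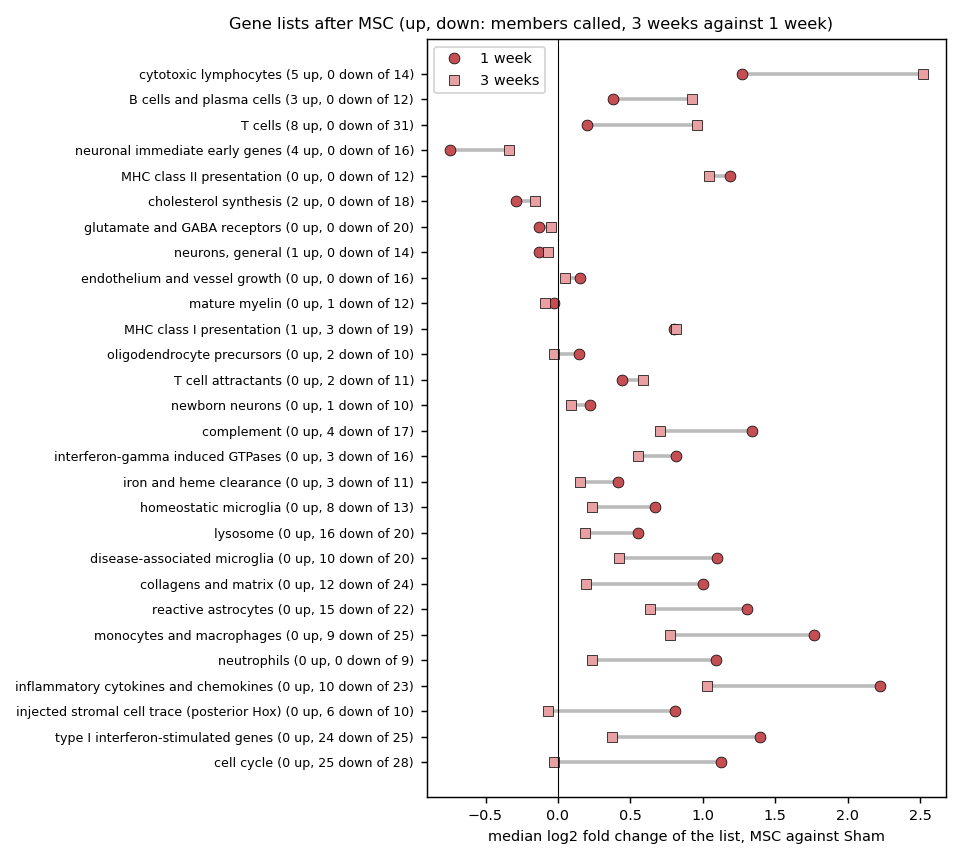
Median log2 fold change against Sham of each gene list after MSCs (horizontal axis) at 1 wpi (circles) and 3 wpi (squares), with lists on the vertical axis ordered by their median change between the times and the numbers of members called higher and lower in brackets. Cell cycle and type I interferon-stimulated genes move close to 0, MHC class I and II stay near their 1 wpi position, and the T cell, cytotoxic and B cell lists move away from 0. Replicate 4 at 3 wpi is included. Its summed MHC class I genes were at 625 CPM, against 369 to 412 CPM in the other mice at 3 wpi and 449 to 483 CPM at 1 wpi.

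Lymphocyte genes made up most of the late class. Of the 23 genes higher than in Sham at 3 wpi and not called at 1 wpi, 17 belong to the T cell, cytotoxic lymphocyte or B cell and plasma cell lists. Of the 57 genes of these lists that were tested, 16 rose from 1 to 3 wpi, 7 of them without overlap between the mice, and none fell. The background of genes that rose was the 1.22% given above. The lists were drawn up with earlier results of these data known, so their direction is not independent evidence.

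Of 31 T cell genes, 8 rose, namely Cd3e, Cd3g, Cd8a, Cd8b1, Cd2, Trac, Lat and Cxcr6. Cd8a, at chr6:71373427-71379173 on GRCm38, encodes a chain of the co-receptor of cytotoxic T cells and was at 0.520, 0.698, 0.480, 0.637 and 0.530 CPM at 1 wpi and at 1.78, 1.98, 1.48, 1.36 and 2.64 CPM at 3 wpi. The lowest mouse at 3 wpi was well above the highest at 1 wpi, and the mice at 1 wpi lay above the Sham range of 0.268 to 0.401 CPM. The rise was 3.22-fold (log2 1.69 ± 0.25, adjusted p = 2.66e-05), and Cd8a was 5.49-fold above Sham at 3 wpi (adjusted p = 1.62e-06). At 1 wpi the difference from Sham did not pass the test (log2 0.77 ± 0.29, adjusted p = 0.0643). In PBS, Cd8a was at 0.386 to 0.691 CPM at 1 wpi and 0.410 to 0.590 CPM at 3 wpi (log2 fold change 0.01).

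Cd8b1, the partner chain at chr6:71322788-71337494, had 0.137, 0.152, 0.0801, 0.0318 and 0.0624 CPM at 1 wpi and 0.453, 0.659, 0.534, 0.232 and 1.03 CPM at 3 wpi. It was near or under the detection limit in all mice at 1 wpi and above it in all at 3 wpi (log2 fold change 2.60 ± 0.58, adjusted p = 0.0039). Cd3g, a subunit of the complex that signals for the T cell receptor, had 0.0274 to 0.187 CPM at 1 wpi and 0.194, 0.745, 0.472, 0.265 and 0.860 CPM at 3 wpi, without overlap, and rose by 2.24 ± 0.50 on the log2 scale (adjusted p = 0.00387). Cd3e, another subunit, had 0.109, 0.364, 0.133, 0.127 and 0.0624 CPM at 1 wpi and 0.518, 0.716, 0.503, 0.265 and 1.00 CPM at 3 wpi. Replicate 1 at 1 wpi and replicate 3 at 3 wpi overlapped, and Cd3e rose by 1.91 ± 0.38 (adjusted p = 0.00113).

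Cxcr6, a chemokine receptor of tissue-resident T cells, rose from 0.127 to 0.219 CPM at 1 wpi to 0.420 to 0.860 CPM at 3 wpi (log2 1.79 ± 0.31, adjusted p = 0.000258), again without overlap. Trac, the constant region of the T cell receptor alpha chain, rose by 1.26 ± 0.23 (adjusted p = 0.000548) and was 1.92-fold above Sham at 3 wpi (adjusted p = 0.0288, and 0.177 without replicate 4). Cd2, an adhesion receptor, and Lat, an adaptor of receptor signalling, also rose, Lat by 1.06 ± 0.27 (adjusted p = 0.0129, and 0.0536 without replicate 2 at 1 wpi). Cd4, the co-receptor of helper T cells, ranged from 0.655 to 5.15 CPM at 1 wpi and from 1.26 to 4.34 CPM at 3 wpi and did not pass the test (adjusted p = 0.89), and Sham mice spanned 0.492 to 5.50 CPM of it. The same 8 T cell genes rose without replicate 4 at 3 wpi, 7 of them without replicate 2 at 1 wpi, and 6 without both. At 3 wpi 12 of the 31 stood above Sham by the test, and 7 without replicate 4.

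Ms4a4b, a membrane protein of T cells outside these lists, rose by 1.06 ± 0.23 on the log2 scale (adjusted p = 0.00293) without overlap of the mice, from 0.480 to 0.892 CPM to 0.938 to 1.86 CPM.

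The cytotoxic genes depended more on 1 mouse. Of 14 tested, 5 rose, namely Nkg7, Gzmb, Prf1, Klrc1 and Ctsw, while 2 of these did without replicate 4 and 1 without both libraries that stood apart. Gzmb, the protease granzyme B, had at most 0.0801 CPM at 1 wpi and 0.0970, 0.258, 0.0629, 0.132 and 1.63 CPM at 3 wpi, and 0 counts in all Sham mice. Replicate 4 was far above the next mouse, and the adjusted p of 0.00927 became 0.116 without it. Nkg7, a protein of cytotoxic granules, had 0.0267 to 0.121 CPM at 1 wpi and 0.420, 0.201, 0.346, 0.0331 and 0.745 CPM at 3 wpi, with replicate 3 no higher than the mice at 1 wpi (log2 fold change 2.81 ± 0.62, adjusted p = 0.00361, and 0.018 without replicate 4). Prf1, the pore-forming perforin, rose by 2.28 ± 0.51 (adjusted p = 0.00393, and 0.0162 without replicate 4). Of the 14 genes, 11 had a log2 fold change above 0. Klrb1c and Eomes were lower at 3 wpi without passing the test, at means of 0.155 and 0.515 TPM at 1 wpi and 0.0458 and 0.391 TPM at 3 wpi. Ncr1, another gene of the list, was at 0.0852 TPM at 1 wpi and 0.0285 TPM at 3 wpi. Most of these values are a few counts per library, so that the folds are imprecise.

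Of 12 B cell and plasma cell genes tested, 3 immunoglobulin constant regions rose, all without overlap. Igha, the heavy chain of IgA at chr12:113254830-113260236, was at 0.0821, 0.0304, 0.267, 0.0637 and 0.0936 CPM at 1 wpi and at 2.39, 1.06, 0.660, 0.993 and 1.03 CPM at 3 wpi. Each mouse at 3 wpi exceeded each mouse at 1 wpi and each Sham mouse, whose highest value was 0.200 CPM, and replicate 0 rather than 4 was the highest. The rise was 3.43 ± 0.56 on the log2 scale (adjusted p = 0.000119). Igkc, the kappa light chain at chr6:70726435-70726966, rose from 0.0312 to 0.438 CPM to 0.786 to 2.32 CPM (log2 2.51 ± 0.57, adjusted p = 0.00449), and Ighg2b, an IgG heavy chain, by 2.65 ± 0.60 (adjusted p = 0.00477). Ighg2b was highest in replicate 1, at 1.32 CPM, and was not tested without replicate 4 because it no longer passed the filter on low counts. The constant regions Ighm, Ighg2c and Ighd did not pass the test, at means of 27.8, 2.77 and 0.426 TPM at 1 wpi. At 3 wpi these were at 21.5, 2.51 and 0.444 TPM. Ighg1, Tnfrsf17 and Mzb1 of the list went from 0.124, 0.488 and 0.580 TPM to 0.0705, 0.242 and 0.424 TPM, while Iglc2 went from 0.0543 to 0.366 TPM. Cd79a, a subunit of the B cell receptor, was at 0.253 ± 0.0733 CPM at 1 wpi and 0.388 ± 0.118 CPM at 3 wpi (mean ± SD, n = 5) and did not pass the test. The B cell gene Ms4a1 was under the filter. Constant regions of immunoglobulins are similar to each other, so reads may be split between them.

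Summed hemoglobin and other red cell transcripts, a marker of blood left in the tissue, were 8.21 to 41.3 CPM at 1 wpi and 3.87 to 61.1 CPM at 3 wpi, with a median of 22.2 and 37.7 CPM, and none of its 5 genes was called. The summed T cell list was 31.5 to 41.0 CPM at 1 wpi and 39.8 to 56.8 CPM at 3 wpi, against 31.9 to 39.2 CPM in Sham. The cytotoxic list was 3.15 to 4.55 and 2.91 to 12.1 CPM, against 1.33 to 2.20 CPM in Sham. The summed B cell and plasma cell list did not move the same way, with 21.6 to 28.9 CPM (median 27.3) at 1 wpi and 20.5 to 28.9 CPM (median 25.1) at 3 wpi. The part of blood in the lymphocyte values was not tested.

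**Figure D4:**
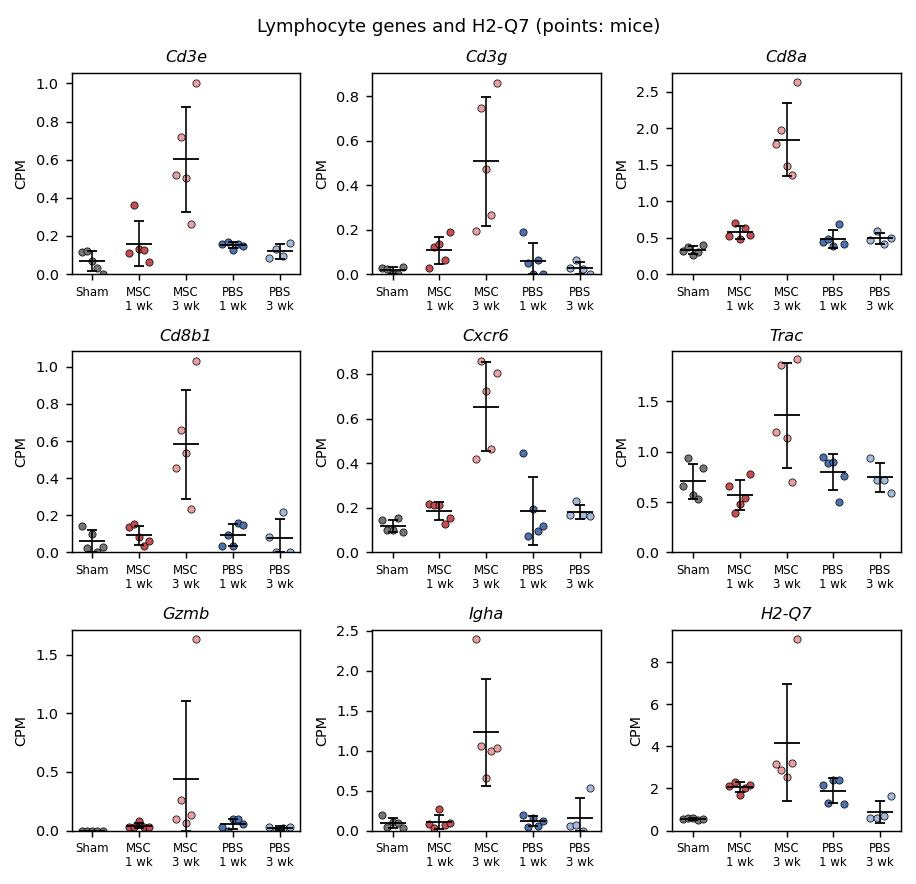
CPM of 8 lymphocyte genes and H2-Q7 (vertical axes, each with its own scale from 0) in each mouse of Sham, MSCs at 1 and 3 wpi and PBS at 1 and 3 wpi, with points for mice and bars for the mean and SD, the lower arm ending at 0. The mice at 3 wpi after MSCs are the highest group in each panel, and in Gzmb and H2-Q7 a single mouse, at 1.63 and 9.11 CPM, lies far above the other 4.

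Few neuronal genes were called. Of 16 immediate early genes, which neurons transcribe within minutes of activity, 13 were lower than in Sham at 1 wpi and 4 rose by 3 wpi, after which none was called against Sham. Fosb, a subunit of the AP-1 factor, was at 6.68, 9.35, 8.01, 11.7 and 11.7 CPM at 1 wpi and at 13.3, 15, 12.2, 13.6 and 15.6 CPM at 3 wpi, against 15.5 to 23.7 CPM in Sham. The mice at 3 wpi all exceeded those at 1 wpi and reached at most the low end of Sham (log2 fold change 0.56 ± 0.13, adjusted p = 0.00543). Egr1, Egr2 and Egr4, zinc finger factors of the same program, rose by 0.49 ± 0.14, 0.70 ± 0.22 and 0.41 ± 0.12, with adjusted p-values between 0.025 and 0.0498. Without replicate 2 at 1 wpi, 2 of the 4 were called. Of 14 general neuron genes, Nefm, a neurofilament subunit, rose by 0.23 ± 0.07 (adjusted p = 0.0304), a call that was lost without either library that stood apart. None of 20 glutamate and GABA receptor genes passed the test.

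Myelin and lineage genes were mostly not called. Of 12 mature myelin genes, Cldn11, a tight junction protein of the sheath, fell by 0.39 ± 0.08 on the log2 scale, and Mbp, the myelin basic protein, had a log2 fold change of 0.03 ± 0.07. Of 10 oligodendrocyte precursor genes, Enpp6 and Gpr17, which mark cells about to myelinate, fell by 0.57 ± 0.11 and 0.42 ± 0.10 (adjusted p = 0.000622 and 0.00943). Of 10 genes of newborn neurons, Tubb2b fell by 0.27 ± 0.06, and Dcx, a microtubule protein of migrating neurons, did not pass the test (adjusted p = 0.936). Of 18 cholesterol synthesis genes, 14 were lower than in Sham at 1 wpi, and 2 rose from 1 to 3 wpi, among them Idi1, an isomerase of the pathway, by 0.26 ± 0.07 on the log2 scale. Without replicate 2 at 1 wpi none rose (Idi1 adjusted p = 0.111), and without replicate 4 at 3 wpi 6 did. None of 16 endothelial and vessel growth genes was called, and 3 were lower at 3 wpi without replicate 4.

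The change from 1 to 3 wpi after PBS, in mice that share no library with the MSC groups, was similar in size among genes that fell. In PBS 839 genes fell, 4.9% of those tested, and 105 rose, 0.613%. Of the genes that fell, 533 were shared, 63.1% of the MSC list and 63.5% of the PBS list, and 815 of the 845 had the same sign in PBS, with a median log2 fold change of -0.56 after MSCs and -0.46 after PBS. Of the genes that rose, 23 were shared, 11% of the 209 and 21.9% of the 105, and 187 of the 209 had the same sign. No gene was called in opposite directions. The T cell list had 8 members that rose after MSCs and none in PBS, and the collagen and matrix list 12 that fell after MSCs and 3 in PBS.

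These counts do not test the difference. When the difference itself was tested, as the interaction of treatment and time in edgeR, 0 of 17131 genes passed, with 572 at an unadjusted p under 0.05, while DESeq2 called 6. The lowest adjusted p in edgeR belonged to Fbln2, a matrix glycoprotein chosen after its values were seen, at 0.108. Its level fell from 37.7, 27.5, 10.2, 25.6 and 19.4 CPM to 5.50 to 7.39 CPM after MSCs, and was 5.64 to 9.76 CPM at 1 wpi and 5.52 to 6.83 CPM at 3 wpi in PBS. The 6 genes called by DESeq2 were Fbln2, Col1a2, Col3a1, Col5a2 and Gm10260, which fell more after MSCs, and H2-Q7, whose log2 fold change was positive after MSCs and negative in PBS. Without replicate 2 at 1 wpi, the MSC mouse with low collagen, edgeR called 7 genes, and 5 of those were Fbln2, Col1a2, Col3a1, Col5a2 and Gm10260. For Cd8a the adjusted p of the difference was 0.372 (log2 1.67 ± 0.39), so that the rise of T cell genes was not shown to differ between MSCs and PBS gene by gene.

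**Figure D5:**
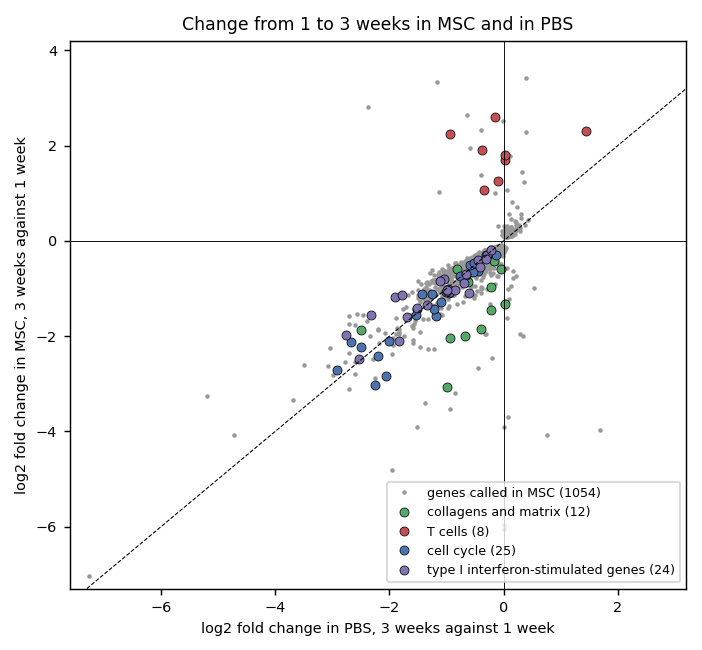
Log2 fold change from 1 to 3 wpi after MSCs (vertical axis) against that after PBS (horizontal axis) for the 1054 genes called after MSCs, with called members of 4 lists coloured and a dashed line of equal change. Cell cycle and type I interferon-stimulated genes lie along the line, 10 of the 12 collagen and matrix genes below it, and the 8 T cell genes above 0 after MSCs, 7 of them near 0 or below it in PBS.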

How the data were processed

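RNA of tissue around the treatment site was sequenced in 35 labelled mice. Of these, 34 had a column in the table, a PBS mouse at 3 wpi having been excluded by the authors. Per the labels and the methods, reads were trimmed with cutadapt 2.4 and assigned to protein-coding GENCODE transcripts with kallisto 0.46. The authors deposited estimated counts per gene, not normalized, beside TPM (abundance scaled for transcript length and depth), and columns of sleuth fold changes, p-values and q-values, which were not used. The deposited TPM entered no test. Estimated counts were rounded to whole numbers, filtered with filterByExpr (17131 of 21203 genes kept) and fitted in 1 edgeR 4.0.16 quasi-likelihood model of 34 libraries and 7 groups in R 4.3.3, with TMM normalization, two-sided tests and Benjamini-Hochberg adjustment over all genes tested. CPM are counts over TMM-scaled library sizes. Libraries of a group correlated with r of 0.981 to 0.994 across genes and differed by more than counting noise, so none was a duplicate. Alternatives were DESeq2 1.42.0, median-ratio size factors, no filter, only the groups compared in the fit, a replicate block, a striatal covariate, Sham mice of the same week, each mouse left out and a log2 limit of 1. Leaving out both libraries that stood apart was added after the data were seen. Scripts were tested on simulated data. The members, lists and tests were chosen with earlier results of these data known. Named genes are the 10 largest non-overlapping changes in each direction, the 10 highest above Sham at both times, the first 2 and up to 4 called genes of each list, and all lymphocyte list genes. Others are said to be chosen after their values were seen, and a few genes that the rule names are not reported here. Gene positions are from GENCODE on GRCm38 and promoters from RefSeq on GRCm38.p6.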

Additional observations from a re-analysis of the deposited data

Results flagged for a closer look

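Of 60 groups of 4 or 5 values examined, 7 held a mouse whose gap to the nearest other mouse took up most of the range on the log2 scale. The genes of these 7 were named for their changes in these same data, and several share the same mouse. The count is therefore not set against a chance rate. At 3 wpi after MSCs, replicate 4 stood apart with 9.11 CPM of H2-Q7 against 2.55 to 3.21 CPM in the other mice, 1.26 CPM of Tgm1 against 0.716 to 0.828 CPM, 1.12 CPM of Ccr7, the homing receptor of lymph node T cells and dendritic cells, against 0.126 to 0.232 CPM, and 2.66 CPM of Cd244a, a receptor of natural killer cells, against 0.0970 to 0.283 CPM. Ifi202b, an interferon-inducible gene, had 0.0323 CPM in replicate 0 at 3 wpi and 0 in the other 4 mice, which is a single count. At 1 wpi, replicate 2 had 1.57 CPM of Sprr1a, a protein of regenerating neurons, against 0.717 to 0.850 CPM, and 26.1 CPM of Cd74 against 8.90 to 10.7 CPM.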

How the results depend on the processing

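Of the 94 named genes called between 1 and 3 wpi, 70 stayed called in every alternative in which they were tested, 24 lost the call in at least 1, and 0 reversed. For genes lower at 3 wpi after MSCs (845), only the groups compared in the fit gave 482 and a log2 limit of 1 gave 185, and leaving out a mouse gave 615 to 1159. For genes higher at 3 wpi (209), these gave 65, 23 and 78 to 227, and 88 without both libraries that stood apart. Any of 7 mice lowered this count by over 1.5 times, to 122, 127, 78 and 111 without replicates 0 to 3 at 1 wpi and to 128, 107 and 112 without replicates 0, 1 and 3 at 3 wpi. Against Sham at 1 wpi, the log2 limit left 504 of 1876 higher and 13 of 1181 lower genes, the latter 656 to 1170 with a mouse left out (656 and 708 without Sham replicates 0 and 2, 744 without MSC replicate 2). Higher than Sham at 3 wpi (191) were 74 with only the groups compared, 57 against Sham mice of the same week, 77 without both libraries, 306 in DESeq2, 78 with the log2 limit and 68 to 291 with a mouse left out (68 without MSC replicate 4, 99, 114, 116 and 107 without Sham replicates 0 to 3, and 291 without Sham replicate 4). Lower than Sham at 3 wpi (6) were 2 with only the groups compared or without both libraries, 10 with the striatal covariate, 18 in DESeq2, 0 with the log2 limit and 1 to 19 with a mouse left out (1, 2, 1 and 19 without Sham replicates 0, 1, 2 and 4, and 3 and 2 without MSC replicates 1 and 4). In PBS, 217 fell with the log2 limit and 539 to 894 with a mouse left out (539 without replicate 1 at 3 wpi), and 30 (only the groups compared), 160 (striatal covariate), 192 (DESeq2), 1 (log2 limit) and 27 to 146 (a mouse left out; 42 and 53 without replicates 1 and 2 at 1 wpi, 43 and 27 without replicates 0 and 1 at 3 wpi) rose. The interaction gave 6 without both libraries, 6 in DESeq2 and 0 to 7 with a mouse left out (7 without MSC replicate 2 and 3 without PBS replicate 2, both at 1 wpi). Other than where fewer mice or a stricter limit set them, the cause of these shifts was not tested.

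The mice at 1 and 3 wpi were separate animals, and the replicate numbers were not taken as pairs in the main fit. Same-numbered mice at 1 and 3 wpi correlated with r of 0.142, -0.0573, 0.0345, -0.13 and 0.336. Without differently numbered mice beside them, these values do not decide whether mice of the same number share anything. With the replicate block, 885 genes were lower and 236 higher. Depth limits the lymphocyte and Hox genes, many of which lie near 3 counts per library.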

Other observations

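Clock genes, a list chosen after values were seen, moved between the times in both treatments. Of 15 tested, 2 rose and 5 fell after MSCs, and 1 rose and 4 fell in PBS. Arntl, which encodes the core activator BMAL1, was at 28.2, 29, 24.8, 26.8 and 29.8 CPM at 1 wpi and at 38.2, 37.6, 36.2, 37.2 and 38.8 CPM at 3 wpi after MSCs, against 33.8 to 40.0 CPM in Sham. It rose by 0.44 ± 0.05 on the log2 scale after MSCs (adjusted p = 9.07e-07, edgeR) and by 0.42 in PBS (adjusted p = 8.71e-06). Ciart, a repressor of that activator, fell by 0.51 ± 0.11 after MSCs and by 0.62 in PBS. Dbp, a target of the clock, fell by 0.62 ± 0.14 after MSCs (adjusted p = 0.00421), and in PBS its log2 fold change was -0.44 (adjusted p = 0.0826). The time of day at which tissue was collected is not given in the sources used here.

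Ugt2a1, a glucuronosyltransferase chosen after its values were seen, had a log2 fold change of 4.36 ± 1.17 from 1 to 3 wpi after MSCs (adjusted p = 0.0214) and of -5.05 ± 1.09 against Sham at 1 wpi (adjusted p = 0.00133), at a mean expression under 1 CPM.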
